A study of Mus musculus with 12 samples.

Results

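Whole ears of 4-week-old mice homozygous for Spade were compared with ears of wild-type littermates of the same age, on 4 of the 12 arrays of the study. The other 8 arrays held the same genotypes at 2 and 6 weeks. At 4 weeks the mutants were Spade/Spade replicates 1 and 2, and the wild-type littermates were replicates 1 and 3. All 4 received no treatment that the labels state. The labels give neither strain background nor sex, and they number the samples without saying whether each is 1 animal or a pool, so every p-value below measures only the spread between these samples. Spade is known from work on this strain to be a point mutation that makes the tyrosine kinase JAK1 overactive, although the labels name only the allele. The question was what differs between mutant and wild-type ears at 4 weeks, and which of those differences the 2 mutant arrays share.

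JAK1 sits on the inner face of cytokine receptors, among them those for interferons, for interleukin 6 and its relatives, and for interleukins 4 and 13. When a ligand joins the receptor chains, JAK1 and its partner kinases phosphorylate STAT transcription factors, which enter the nucleus and switch on target genes. The DNA elements of the pathway include the interferon-stimulated response element and a shorter palindrome bound by STAT dimers. SOCS proteins and USP18 are induced by the pathway and feed back to restrain it. In skin the pathway is known for driving inflammation, keratinocyte stress responses and barrier change, and an ear also holds cartilage, muscle, fat and hair follicles.

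Levels are log2 GCRMA values, in which 1 unit is a 2-fold change in hybridisation signal and 2.14 is the floor. The array reports messenger RNA in bulk tissue, so fewer cells of a type and less RNA per cell cannot be told apart. The tissue label was borne out on all 4 arrays: keratins Krt5, Krt14 and Krt10, collagens Col1a1 and Col3a1, the cartilage genes Acan and Col2a1 and the muscle genes Acta1 and Ckm were called present on each. Jak1 itself stood at 12.06 and 11.95 in mutant replicates 1 and 2 and at 12.26 and 12.07 in wild-type replicates 1 and 3. The difference was -0.16 ± 0.16 (standard error, limma, n = 2 and 2), about the size of its error. The probe set measures the amount of Jak1 message and does not read the mutation.

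One property of the mutant pair bears on everything that follows. Mutant replicate 1 was the only array of the 12 with GCRMA values of Y-linked genes above the floor: Eif2s3y stood at 11.5, Uty at 8.27 and Kdm5d at 6.53. MAS5 called Eif2s3y absent on the other 11 arrays, but it called Uty present on wild-type replicate 1 and Kdm5d present on replicate 3 of the 6-week mutants. Xist, made from the inactive X chromosome, stood at 2.74 on that array and at 12.35 on mutant replicate 2, and at 12.55 and 12.93 on the wild-type pair. Whatever separates the milder from the stronger mutant therefore cannot be told apart from this difference, or from any other between 2 single samples. The array numbers in the labels fall into ranges of 2 to 8, 17 to 20 and 23 to 27, of unstated meaning. Both mutants and wild-type replicate 1 lie in the first range and wild-type replicate 3 in the second.

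Short stretches of promoter are shown for 5 genes named below. They were picked because they hold letter matches to elements through which JAK1 signalling is known to act. MAS5 called 2 of them, Oas1a and Rdh16, absent on all 4 arrays of 4 weeks. The first 3 hold the interferon-stimulated response element, searched as GAAA, any 2 bases, GAAA, and the last 2 hold the STAT palindrome TTCNNNGAA. Both strands of the 250 bases before each RefSeq gene start were searched, N being any base. Sequences are from RefSeq on GRCm38.p6, 5′ to 3′ along the gene's own strand, with the matches of the element each is shown for in capitals; where the first element lies on the opposite strand it reads TTTC, any 2 bases, TTTC. Ifit1 lies on the plus strand at chr19:34640760-34640838 and Irgm2 on the plus strand at chr11:58214888-58214947. Oas1a lies on the minus strand at chr5:120907526-120907570, where overlapping matches run together. The Irgm2 stretch also holds a STAT palindrome, left in lower case. Socs3 lies on the minus strand at chr11:117969487-117969545 and Rdh16 on the plus strand at chr10:127800903-127800956.
Ifit1: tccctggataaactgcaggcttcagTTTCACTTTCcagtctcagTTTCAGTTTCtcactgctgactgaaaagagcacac
Irgm2: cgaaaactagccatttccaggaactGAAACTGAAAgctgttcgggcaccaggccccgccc
Oas1a: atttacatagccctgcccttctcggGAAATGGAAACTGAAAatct
Socs3: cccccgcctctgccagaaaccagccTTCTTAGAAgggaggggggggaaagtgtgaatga
Rdh16: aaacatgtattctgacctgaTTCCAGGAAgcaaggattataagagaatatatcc

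No single gene passed the test for the mutant pair against the wild-type pair. Of 11984 genes tested, limma called 0 (0%) at a Benjamini-Hochberg adjusted p under 0.05, and 432 (3.6%) had an unadjusted p under 0.05. The adjusted p was 1 for every gene named below for this comparison. The rank product criterion of the authors' design text, a 2-fold mean difference with a false discovery rate estimated at under 0.05, gave 15 genes higher and 1 lower. The 5 with the highest differences were Fetub, Oasl2, Ifit1, Chil1 and Wfdc18, and the lower one was Krt77. With 2 arrays against 2, an exact permutation test of a single gene cannot give a two-sided p below 0.333, so none is given. Directions below are therefore descriptions of 4 arrays.

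Mutant replicate 2 stood farther from both wild-type arrays than mutant replicate 1 did. A difference of at least 2-fold was seen for 588 genes between mutant replicate 2 and wild-type replicate 1 and for 364 between it and wild-type replicate 3. For mutant replicate 1 the counts were 266 and 162. The 2 mutants were 2-fold or more apart for 260 genes, fewer than the 321 between the 2 wild-type arrays. The mutant pair was lopsided, however: at a margin of 4-fold, replicate 2 was higher than replicate 1 for 45 genes and lower for 6, where the wild-type pair gave 13 each way. Pearson's r across genes, which are not independent replicates, was 0.985 between the mutants and 0.986 between the wild-type arrays. A limma contrast of the 2 mutants, with its spread taken from the other 5 groups, called 0 genes, with 396 (3.3%) at an unadjusted p under 0.05; other settings gave 0 to 8 calls wherever low values were filtered, and 668 without a filter. That contrast compares 2 samples, not 2 conditions.

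**Figure D1:**
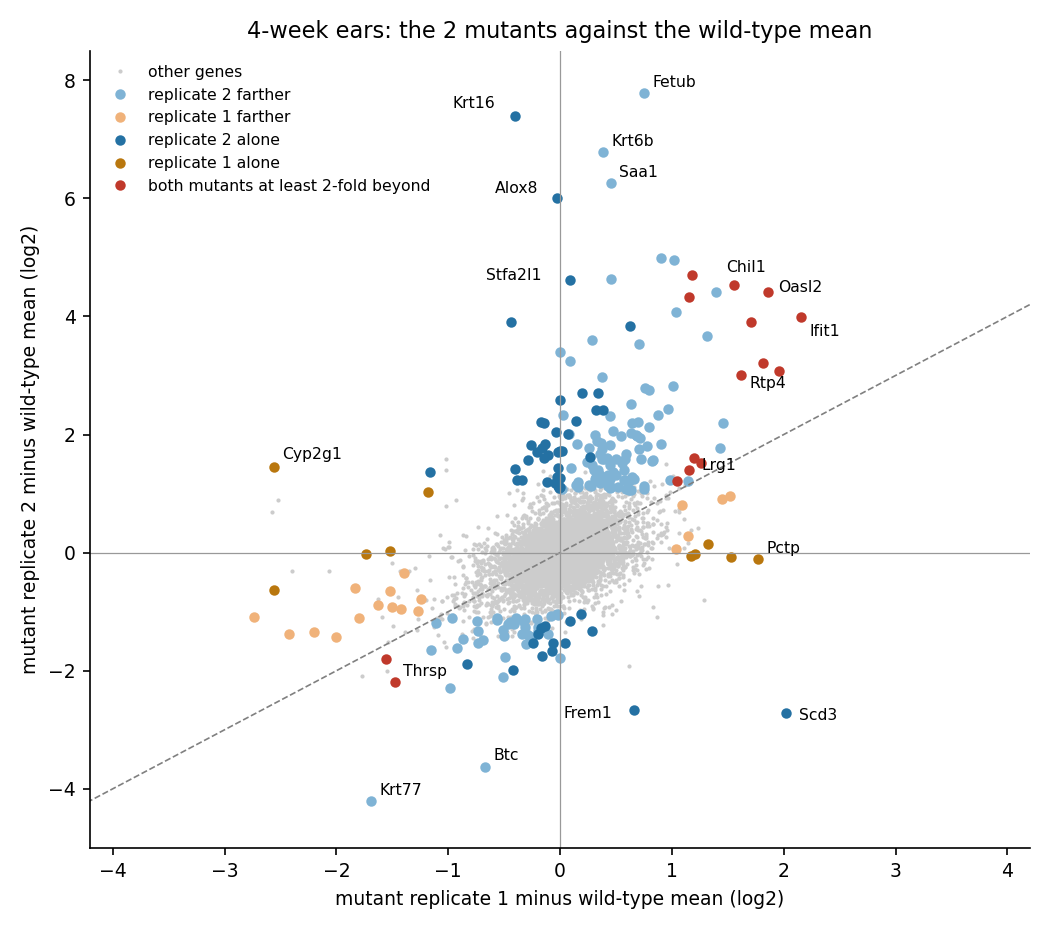
Each point is 1 gene, with mutant replicate 1 minus the wild-type mean on the horizontal axis and mutant replicate 2 minus the wild-type mean on the vertical axis, both in log2 units; Xist is left out. Genes beyond both wild-type arrays only in replicate 2 lie mostly near the vertical axis, though some lie off it, such as Scd3 at 2.02 in replicate 1. The 13 genes high in both mutants lie above the diagonal. The 2 axes share their wild-type arrays.

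To separate what the mutants share, a mutant array was counted as beyond wild type where it lay at least 1 log2 unit above the higher, or below the lower, of the 2 wild-type arrays. The mutants share these wild-type arrays, so the 2 values of a gene are set side by side and not correlated. Replicate 1 was beyond for 23 genes above (0.192%) and 21 below (0.175%), and replicate 2 for 147 above (1.23%) and 54 below (0.451%). Both mutants were beyond for 13 genes above and 2 below. Replicate 2 alone was beyond, with replicate 1 not even past the nearer wild-type array, for 38 above and 15 below. For 96 genes above and 37 below, replicate 2 was beyond and replicate 1 lay past both wild-type arrays by less than 2-fold. Replicate 1 alone was beyond for 5 genes above and 5 below, and replicate 1 lay farther than replicate 2 for another 5 above and 14 below. Xist, at 2.74 in replicate 1 as given above, is among these 14. With no margin at all, the mutant pair was wholly above the wild-type pair for 1912 genes (16%) and wholly below it for 1893 (15.8%). The margin decided some memberships: the milder mutant cleared the nearer wild-type array by 1.08 for Scgb1b27 and by 1.005 for Irgm2, which are in, and by 0.992 for Nrip2 and 0.914 for Ifi27l2a, which are out.

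The 13 genes that both mutants held at least 2-fold above wild type included interferon-induced genes, epidermal or keratin genes and a few secreted or metabolic genes. Replicate 2 was the higher mutant for each of the 13. Over them the median difference from wild type was 1.56 in replicate 1 and 3.21 in replicate 2. These values are those that chose the genes, so they are given as a description.

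Interferon-induced genes gave 5 of the 13. Ifit1, whose protein binds foreign RNA, stood at 4.59 and 6.43 in mutant replicates 1 and 2 and at 2.14 and 2.74 in wild-type replicates 1 and 3. Oasl2, of the oligoadenylate synthetase family, stood at 4.47 and 7.02 against 2.58 and 2.64, where wild type was called absent. Its mean difference was 3.13 ± 1.22 on the GCRMA scale and 1.75 in MAS5 signal. Usp18, which removes the ubiquitin-like protein ISG15 and restrains the type I interferon receptor, stood at 5.16 and 6.27 against 3.24 and 3.17. In each of these 3 genes the lower mutant lay well clear of both wild-type arrays. MAS5 signals gave smaller mean differences, 1.73 for Ifit1 and 1.05 for Usp18, where GCRMA gave 3.07 and 2.51. Rtp4, an interferon-induced transporter protein, stood at 8.45 and 9.83 against 6.81 and 6.85, a mean difference of 2.31 ± 0.47. Irgm2, a GTPase induced by interferon gamma, stood at 8.28 and 8.45 against 7.19 and 7.27, a mean difference of 1.13 ± 0.30. Irgm2 was almost level between the mutants, at 0.17 for replicate 2 minus replicate 1, whereas Oasl2 was 2.55 apart and Ifit1 1.83.

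Epidermal or keratin genes gave 3 more. Sprr2d, a small proline-rich precursor of the cornified envelope, stood at 3.53 and 7.05 in mutant replicates 1 and 2 and at 2.35 on both wild-type arrays, which were called absent with mutant replicate 1. Krt84, a hard keratin, stood at 3.80 and 6.97 against 2.68 and 2.60, with the same calls. Prss27, a serine protease of stratified epithelia, stood at 6.75 and 8.96 against 5.01 and 5.08, a mean difference of 2.81 ± 0.64. The gap between the mutants was largest of the 13 for Sprr2d and Krt84. For Krt84, replicate 2 lay 3.18 above replicate 1.

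The remaining 5 shared genes have other roles. Chil1, a secreted chitinase-like protein of inflamed tissue, stood at 10.998 and 13.974 in mutant replicates 1 and 2 and at 9.20 and 9.68 in the wild-type pair. Aox4, an aldehyde oxidase that acts on retinaldehyde, stood at 10.12 and 11.51 against 8.44 and 8.17. Lrg1, an acute-phase glycoprotein induced through STAT3, stood at 9.50 and 9.91 against 8.38 and 8.24. The Lrg1 difference was 1.40 ± 0.21, and the mutants lay 0.41 apart. Marchf1, a ubiquitin ligase that removes MHC class II from the surface, stood at 5.15 and 5.41 against 3.98 and 3.80. Scgb1b27, a secretoglobin, stood at 7.37 and 7.604 against 6.29 and 6.13.

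Both mutants stood at least 2-fold below wild type for Thrsp and Atp1b4. Thrsp, a regulator of fatty acid synthesis, stood at 9.31 and 8.59 in the mutants and at 10.66 and 10.91 in wild type, a difference of -1.84 ± 0.55. Atp1b4, a muscle protein of the family of sodium pump beta subunits, stood at 5.63 and 5.38 against 7.47 and 6.90, a difference of -1.68 ± 0.40. In both genes the mutants were closer to each other than to either wild-type array.

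**Figure D2:**
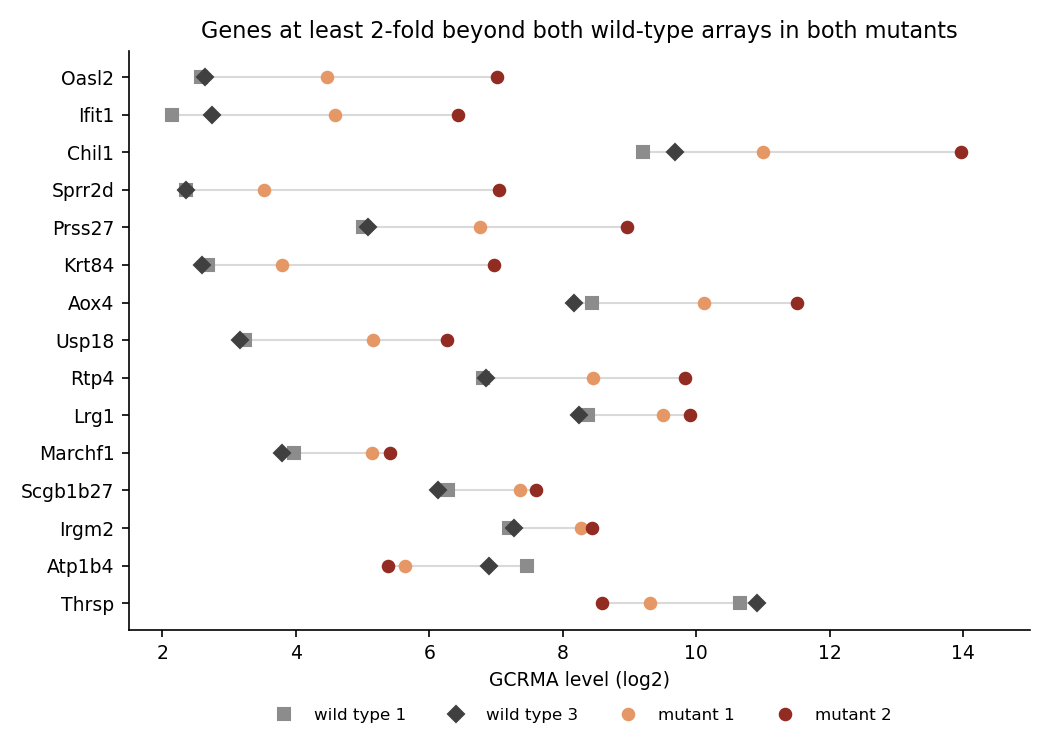
Log2 GCRMA level on each of the 4 arrays of 4 weeks for the 13 genes that both mutants held at least 2-fold above both wild-type arrays and the 2 they held below. Mutant replicate 2 is the higher mutant for each of the 13, and Irgm2, Marchf1 and Scgb1b27 show the smallest gaps between the mutants.

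The 38 genes high in the stronger mutant alone included epidermal, neutrophil and lymphocyte genes. The mast cell and basophil marker Fcer1a was also among them, at a level near background. Krt16, the keratin of wounded and inflamed epidermis, stood at 14.08 in replicate 2 and at 6.28 in replicate 1, inside the wild-type values of 7.25 and 6.12. Replicate 2 minus replicate 1 was 7.80 for Krt16. Alox8, a lipoxygenase induced in irritated mouse skin, stood at 8.24 in replicate 2, 2.20 in replicate 1 and 2.20 and 2.24 in wild type. Its wild-type arrays and replicate 1 were called absent, and replicate 2 lay 6.01 above wild type by GCRMA and 3.21 by MAS5 signal. Sprr1b, another cornified envelope precursor, stood at 9.15 in replicate 2 and at 5.94 in replicate 1, within the wild-type values of 6.48 and 4.15. Klk13, an epithelial serine protease, stood at 6.64 in replicate 2 and 4.31 in replicate 1, against 4.90 and 4.00. Degs2, a ceramide hydroxylase of the barrier, stood at 6.77 and 4.69 against 3.72 and 5.36. In each of these genes replicate 1 lay within or level with the wild-type pair, while replicate 2 lay outside it.

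Inflammatory and leukocyte genes in this group showed the same split. Stfa2l1, a stefin protease inhibitor of neutrophils, stood at 9.82 in replicate 2 and at 5.29 in replicate 1, with wild type at 4.96 and 5.44. Lcn2, an iron-siderophore-binding protein of neutrophils and keratinocytes, stood at 9.88 and 7.53 against 7.77 and 6.60. Il1f6, the epidermal cytokine interleukin 36 alpha, stood at 8.04 and 6.06 against 6.41 and 5.98. Replicate 1 lay within the wild-type values in all 3 genes, which for Lcn2 were themselves 1.17 apart. Socs3, the feedback inhibitor of STAT3 signalling whose promoter stretch is shown above, stood at 11.42 in replicate 2 and 9.47 in replicate 1, against 9.12 and 10.15. Nkg7, a granule protein of cytotoxic lymphocytes, stood at 7.31 and 5.99 against 6.11 and 6.10. Fcer1a, the alpha chain of the IgE receptor of mast cells and basophils, lay at or next to the floor on 3 arrays and at 3.41 in replicate 2, the only array of the 4 called present.

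For 6 of the 38 genes MAS5 called all 4 arrays absent, so they are given as levels with no fold. Rdh16, a retinol dehydrogenase, stood at 4.71 in replicate 2 and at the floor on the other 3 arrays. Oas1a, an oligoadenylate synthetase, stood at 6.32 in replicate 2 and at 4.24, 4.44 and 4.12 elsewhere. Cxcr2, the neutrophil chemokine receptor, stood at 5.10 against 3.39, 3.42 and 3.35. Lypd2, Lce3a and Lce3c were the others. Cyp17a1, a steroid hydroxylase called present only in replicate 2, lay there 2.70 above wild type by GCRMA and 1.05 by MAS5 signal. All 32 differences of single genes that were compared between the signals were smaller by MAS5, so sizes near background depend on the signal.

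The 15 genes low in replicate 2 alone included genes of muscle, fat and sebaceous glands. Frem1, a basement membrane protein, stood at 4.46 in replicate 2 and at 7.79 in replicate 1, against 7.28 and 6.96 in wild type. Its difference in replicate 2 was -2.66 by GCRMA and -0.70 by MAS5 signal. Serpina12, the adipokine and epidermal protease inhibitor vaspin, stood at 10.44 and 12.002 against 11.86 and 12.07. Mybpc2, a myosin-binding protein of fast muscle, stood at 6.63 and 8.22 against 8.86 and 7.72, and the fast-fibre calcium buffer Pvalb at 11.36 and 12.61 against 12.59 and 12.45. Both muscle genes were close to wild type in replicate 1. Scd3, a desaturase of sebaceous glands, ran opposite ways in the mutants, at 5.46 in replicate 2 and 10.20 in replicate 1, with wild type itself split at 9.29 and 7.07. This low group depended on the signal: only 2 of the 15 genes were also in the 16 that the same rule picked from MAS5 signals, whereas 15 of the 38 high genes were among 24.

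**Figure D3:**
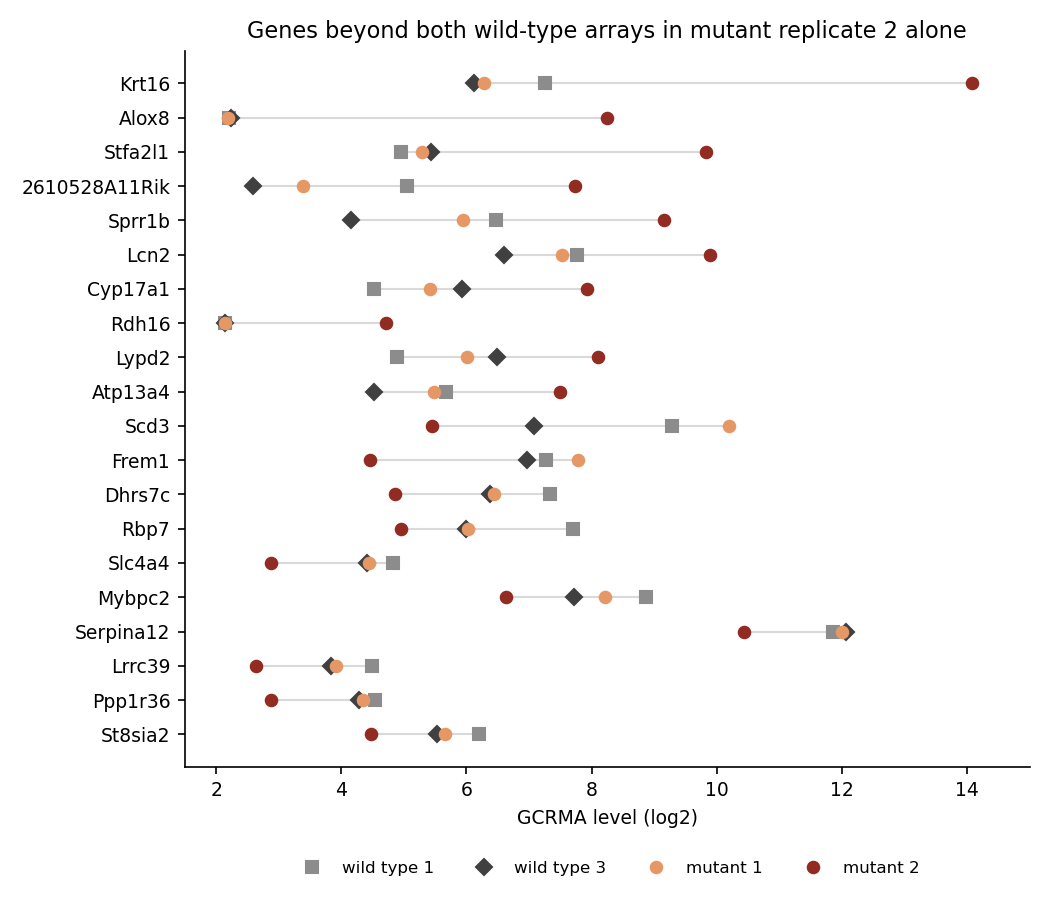
Log2 GCRMA level on each of the 4 arrays for the 10 genes highest and the 10 lowest in mutant replicate 2 alone, among those for which replicate 1 did not pass the nearer wild-type array. Krt16 shows the widest gap, with replicate 2 at 14.08 and the other arrays between 6.12 and 7.25.

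In the graded group replicate 2 was at least 2-fold beyond wild type and replicate 1 lay past wild type by less than that. Its 96 high genes had a median difference of 0.49 in replicate 1 and 1.59 in replicate 2. Fetub, a protease inhibitor of the fetuin family, stood at 10.90 in replicate 2 and at 3.87 in replicate 1, against 3.22 and 3.01. Replicate 2 minus replicate 1 was 7.04 for Fetub. Krt6b, a partner of Krt16 in stressed epidermis, stood at 9.75 and 3.35 against 3.13 and 2.80. Wild type was called absent for Krt6b, and replicate 2 lay 6.78 above it on the GCRMA scale. In Fetub and Krt6b replicate 1 was past wild type by under 1 unit and replicate 2 by more than 6.

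Klk6, a kallikrein protease, stood at 11.47 in replicate 2 and 8.43 in replicate 1, against 7.66 and 7.13. Wfdc18, of a family of small protease inhibitors, stood at 8.29 and 4.36 against 3.11 and 3.56. S100a9 and S100a8 form the antimicrobial alarmin calprotectin of neutrophils and stressed keratinocytes. S100a9 stood at 9.55 and 6.39 against 6.30 and 6.29, so replicate 1 was barely above wild type. S100a8 stood at 9.56 and 7.52 against 6.83 and 6.70, so replicate 1 was clearly above it. Bcl3, a nuclear cofactor of NF-kappa B and a STAT3 target, stood at 7.46 and 6.01 against 4.99 and 5.27. Mcpt8, a protease made by basophils, was at the floor of 2.14 on every 4-week array but replicate 2, at 5.53. It fell into this group by a difference in the third decimal. At the other ages the mutants stood above wild type for Mcpt8, by 4.21 at 2 weeks and 5.85 at 6 weeks.

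Lower in the same graded way were 37 genes. Krt77, a keratin of sweat ducts and suprabasal epidermis, stood at 9.19 in replicate 2 and 11.72 in replicate 1, against 14.22 and 12.59. The wild-type arrays were 1.63 apart for Krt77, and each mutant lay below both. Btc, the EGF receptor ligand betacellulin, stood at 5.68 and 8.63 against 9.41 and 9.20. Lce1m, a late cornified envelope gene, stood at 11.63 and 12.44 against 12.90 and 12.99. For Btc and Lce1m the 2 wild-type arrays lay within 0.21 of each other, and for all 3 genes replicate 2 was the lower mutant.

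Few genes ran the other way, with the milder mutant the more different. Replicate 1 alone was beyond wild type above for Pctp, Spon1, Serpinb6c, E430018J23Rik and BC025920, and below for Cyp2g1, Erdr1, Per1, Gstm6 and 2810410L24Rik. Spon1, a secreted matrix protein, stood at 9.13 in replicate 1 and 7.94 in replicate 2, against 7.54 and 8.06. Pctp, a phosphatidylcholine transfer protein, stood at 10.43 and 8.55 against 9.34 and 7.98. Cyp2g1, a cytochrome P450, stood at 8.66 and 12.67 against 10.13 and 12.31, so the wild-type arrays were themselves 2.18 apart. Per1, a circadian clock repressor, stood at 8.64 and 10.18 against 9.89 and 10.43. None of the 5 high genes was above both wild-type arrays in both mutants at 2 weeks, beside 12.9% of all genes tested. At 6 weeks 1 of the 5 was, beside 19.8%, and 5 genes are too few to set against these shares.

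The rule for these groups read only the 4-week arrays, but the filter on low values and the choice of probe set used all 12. A gene low at 4 weeks could thus enter through another age, as Rdh16 did through the 6-week mutants, at 4.14 and 4.25. Without the filter the group high in replicate 2 alone held 49 genes, and that high in both stayed at 13. The values at 2 and 6 weeks are therefore descriptions of where the same genes stood. Of the 13 genes high in both 4-week mutants, 10 had both mutants above both wild-type arrays at 2 weeks, beside 12.9% of all genes tested, and 12 did at 6 weeks, beside 19.8%. Their median difference was 1.86 at 2 weeks and 3.70 at 6 weeks. Marchf1 was the exception at 6 weeks, at -0.17. Of the 38 genes high in replicate 2 alone, 16 were above at 2 weeks and 32 at 6 weeks, with medians of 0.46 and 1.502. The 96 graded genes gave 60 and 83, with medians of 0.74 and 1.37. The medians of all genes tested were -0.04 at each age, and the difference between the ages was not tested for these groups.

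Single genes show both patterns. Usp18 stood 3.24 above wild type at 2 weeks, 2.51 at 4 weeks and 2.80 at 6 weeks by GCRMA. Krt16 stood 3.10 above at 2 weeks and 7.402 at 6 weeks, where the 4-week mutants were at -0.40 and 7.39. Rdh16 was level at 2 weeks and 2.05 above at 6 weeks, with all 4 arrays of 4 weeks called absent. Sprr1b stood 0.04 above at 2 weeks and 3.73 at 6 weeks.

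The low groups were followed in the same way. Of the 15 genes low in replicate 2 alone, 9 had both mutants below both wild-type arrays at 2 weeks, beside 22.4% of all genes, and 6 did at 6 weeks, beside 25.7%, with medians of -0.67 and -0.42. Of the 37 graded low genes, 17 were below at 2 weeks and 17 at 6 weeks. Frem1 stood at -0.11 and -0.18 at these ages, and its groups overlapped at both. Scd3 stood at -0.58 and -0.86, with both mutants below wild type at 2 weeks and the groups overlapping at 6 weeks. Btc stood at -1.40 at 2 weeks and -4.77 at 6 weeks. The muscle genes among these rest partly on replicate 3 of the 2-week mutants: over the muscle list that array averaged 8.53, beside 10.29 to 10.64 on the other 3 arrays of 2 weeks, and over the hair list 12.26 beside 5.58 to 6.68. Mybpc2, for example, stood at 6.50 and 2.94 in the 2-week mutants, against 6.58 and 7.24. Taken one 2-week mutant at a time, an alternative added after the data were seen, the medians were -0.50 and -0.71 for the 15 genes, -0.58 and -0.17 for the 37, and 1.93 and 1.96 for the 13 genes high in both mutants, replicate 2 first. In a limma fit of all ages, the genotype difference at 4 weeks minus that at 6 weeks gave 0 calls, with 351 genes at an unadjusted p under 0.05. The same contrast with 2 weeks gave 0 calls and 331.

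**Figure D4:**
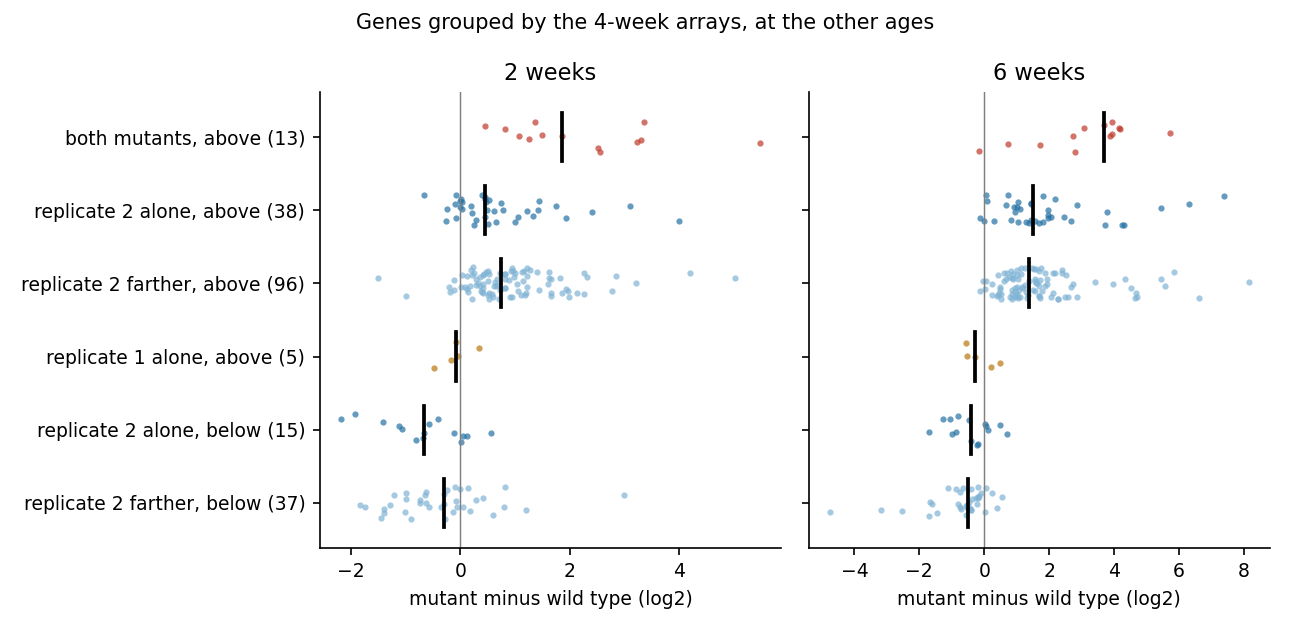
Mutant minus wild-type log2 difference at 2 weeks and at 6 weeks for each gene of the groups defined at 4 weeks, with a black bar at the median of each group. The genes high in both 4-week mutants have medians of 1.86 and 3.70, and those high in replicate 2 alone have medians of 0.46 and 1.502.

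The 6-week mutants gave a further list, tested without the 4-week arrays. A limma fit of the 8 arrays of 2 and 6 weeks called 22 genes (0.184%) at 6 weeks with at least a 2-fold difference, 21 higher and Btc lower. At 4 weeks replicate 2 lay above both wild-type arrays for 21 of the 21 higher genes, beside 32% of all genes, and by at least 2-fold for 18, beside 1.23%. Replicate 1 lay above both for 15 of 21, beside 29.8%, and by at least 2-fold for 3, beside 0.192%. The 3 were Chil1, Krt84 and Prss27. The 18 of replicate 2 include genes near background. Among them are Rdh16 and Lce3a, which MAS5 called absent on all 4 arrays of 4 weeks, and Fcer1a, at 3.41 in replicate 2. The median difference of the 21 was 0.39 in replicate 1 and 3.25 in replicate 2. The filter on low values and the choice of probe set used all 12 arrays. All 22 genes passed the same filter with the same probe set on the 8 arrays alone. On these 8 arrays Rdh16 passed only through the 6-week mutants, at 4.14 and 4.25, in which it was then called higher.

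Replicate 2 exceeded replicate 1 for 20 of the 21, beside 48.8% of all genes. Cd209d, a lectin of dermal macrophages, was the exception, at 8.26 in replicate 1 and 8.20 in replicate 2, against 7.43 and 7.52. Epgn, the EGF receptor ligand epigen, was the gene on the list that replicate 1 held lowest relative to wild type, at 2.70 against 4.37 and 3.09, with replicate 2 at 5.12. For 5 of the 21 the milder mutant was below the wild-type mean. Its difference was -1.02 for Epgn, -0.44 for 2610528A11Rik and -0.40 for Krt16. For Fcer1a and Lce3a it was -0.003 and -0.02, with wild type called absent, so both were level with wild type.

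Gene lists drawn from skin and ear biology describe the rest of the tissue, each as counts and medians beside all genes tested. Over all genes the median difference was -0.01, and the mutant pair was wholly above wild type for 16% of them and wholly below for 15.8%. No member of any list passed the test.

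Within the JAK1 pathway, the receptors and kinases had medians near 0 and the interferon-induced targets stood above wild type. Of 17 tested genes of cytokine receptors that use JAK1, 5 had both mutants above wild type and 0 below, with a median of 0.12. Il10rb, a chain of the interleukin 10 and 22 receptors, stood at 10.45 and 10.59 in mutant replicates 1 and 2 against 10.04 and 10.19. Of 8 kinases and STAT factors, 2 were above and 1 below, with a median of 0.14. Stat3 stood at 12.19 and 12.51 against 11.82 and 12.20, so replicate 1 lay between the wild-type arrays.

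Of 31 interferon-stimulated genes tested, 23 were above in both mutants and 0 below, with a median difference of 0.66. The median was 0.43 in replicate 1 and 0.80 in replicate 2, and 0.04 for wild-type replicate 3 minus wild-type replicate 1. Replicate 1 was at least 2-fold beyond wild type for 5 of them and replicate 2 for 11. Xaf1, an interferon-induced regulator of apoptosis, stood at 8.46 and 9.40 against 7.44 and 7.66, a difference of 1.38 ± 0.32. Stat2 did not follow the list, at 4.46 and 4.04 against 4.23 and 4.41. Of 14 interferon-gamma targets, 10 were above and 0 below, with medians of 0.61 in replicate 1 and 0.80 in replicate 2. Iigp1, a GTPase active against intracellular pathogens, stood at 8.72 and 9.07 against 6.70 and 7.88, a difference of 1.60 ± 0.41. Replicate 2 was the higher mutant for 11 of the 14 and for 23 of the 31, so both lists leaned to replicate 2.

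Feedback inhibitors and direct STAT targets stood near wild type as a group: of 34 genes, 6 were above and 1 below in both mutants, with a median of 0.04. Socs3 was high in replicate 2 alone, as given above. Cish, a feedback inhibitor of STAT5 signalling, stood at 8.38 and 9.33 against 8.02 and 9.39, within wild type. Pim2, a kinase induced by STATs, stood at 5.298 and 5.36 against 4.43 and 4.86, a difference of 0.68 ± 0.21.

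The promoter elements shown at the start were counted over these groups. The interferon-stimulated response element was found in 7 of 24 interferon-stimulated genes with a promoter (29.2%), in 2 of 11 genes high in both mutants (18.2%), in 3 of 28 high in replicate 2 alone (10.7%) and in 6 of 70 of the graded high group (8.57%). The shares were 3.46% of all 27025 genes with a promoter and 3.09% of those tested. The STAT palindrome was found in 5 of 24 interferon-stimulated genes (20.8%), in 6 of 28 high in replicate 2 alone (21.4%) and in 2 of 11 high in both (18.2%). It was found in 8 of 70 of the graded high group (11.4%), in 8.13% of all genes with a promoter and in 6.97% of those tested. In the stretches shown above, Ifit1 holds 2 copies of the first element and Irgm2 holds 1. These are matches of letters and not sites of binding.

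Antigen presentation and macrophage genes stood above wild type in both mutants by small amounts. Of 13 antigen presentation genes, 12 were above and 0 below, with medians of 0.32 in replicate 1 and 0.62 in replicate 2, and replicate 2 was the higher for all 13. Ctss, the protease that trims the invariant chain, stood at 12.87 and 13.29 against 12.23 on both wild-type arrays, a difference of 0.84 ± 0.17. Cd74, the invariant chain itself, stood at 13.52 and 13.78 against 12.95 and 13.24. Of 27 macrophage, monocyte and dendritic cell markers, 20 were above and 0 below, with medians of 0.43 and 0.58. Ccr2, the receptor that brings monocytes out of blood, stood at 8.498 and 8.84 against 7.59 and 8.02, and Itgax at 5.496 and 6.58 against 4.65 and 5.34. Ccl8, a chemokine made by skin macrophages, stood at 11.49 and 11.87 against 10.77 and 10.73, a difference of 0.94 ± 0.19. Both lists stood above wild type in the milder mutant too.

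Neutrophil and T cell markers stood apart mainly in replicate 2. Of 7 tested neutrophil markers, 3 were above in both mutants, with medians of 0.09 in replicate 1 and 1.71 in replicate 2. The replicate 2 median is the value of Cxcr2, which MAS5 called absent on all 4 arrays of 4 weeks, so its size is uncertain. Of 11 T cell and innate lymphoid markers, 4 were above in both, with medians of 0.11 and 0.98, and replicate 2 was at least 2-fold beyond wild type for 4. Cd3e, a chain of the T cell receptor complex, stood at 7.77 and 8.48 against 7.42 and 7.27. Cd3d stood at 6.87 in replicate 1, below both wild-type arrays at 7.48 and 7.18, and at 8.34 in replicate 2. Replicate 1 thus held Cd3e above wild type and Cd3d below it.

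Of 12 mast cell and basophil markers, 4 were above in both mutants, with medians of 0.15 and 0.26, but wild-type replicate 3 lay below wild-type replicate 1 by a median of 0.68. Of 8 Langerhans cell markers, 6 were above and 2 below. Cd207, which defines these cells, stood at 8.599 and 9.52 against 8.59 and 8.48, and Il34, the keratinocyte cytokine that sustains them, at 7.95 and 7.83 against 8.43 and 8.52. Of 13 type 2 genes 5 were above, with a median of 0.17, and the 2 tested B cell genes were both above. Of 16 innate cytokines and chemokines, 3 were above and 1 below, with medians of -0.08 in replicate 1 and 0.09 in replicate 2. The interleukin 36 genes Il1f6, Il1f8 and Il1f9 were exceptions in replicate 2, at 1.84, 1.90 and 1.55 above wild type.

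Epidermal lists stood farther from wild type in replicate 2 than in replicate 1. Of 24 barrier activation keratins and alarmins, 11 were above in both mutants and 0 below, with medians of 0.19 in replicate 1 and 1.39 in replicate 2. Replicate 2 was the higher mutant for all 24, and it was at least 2-fold beyond wild type for 12, against 1 in replicate 1. Of 35 cornified envelope genes, 19 were above and 4 below, with medians of 0.14 and 0.53. Lce3f, a late cornified envelope gene of wounded skin, stood at 7.18 in replicate 2 and 3.00 in replicate 1, against 2.55 on both wild-type arrays, which were called absent. Lce1f stood at 14.60 in replicate 2 and 14.02 in replicate 1, against 13.28 and 13.44. The cornified genes thus ran in both directions, with Lce1m and Krt77 low and Lce3f and Lce1f high.

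Of 27 epidermal proteases and inhibitors, 9 were above and 1 below, with medians of 0.07 and 0.33. Wfdc12, a small protease inhibitor, stood at 11.49 in replicate 2 and 8.66 in replicate 1, against 7.68 and 8.23. Of 26 barrier lipid genes, 13 were above and 1 below, with a median of 0.18. Basal and suprabasal keratins and junction genes were nearly level, with 5 of 28 above, 0 below and a median of 0.08. Krt15, a keratin of basal cells and follicle stem cells, stood at 15.32 and 14.78 against 15.19 and 15.17. Of 11 EGF receptor ligands and receptors, 3 were above and 3 below.

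**Figure D5:**
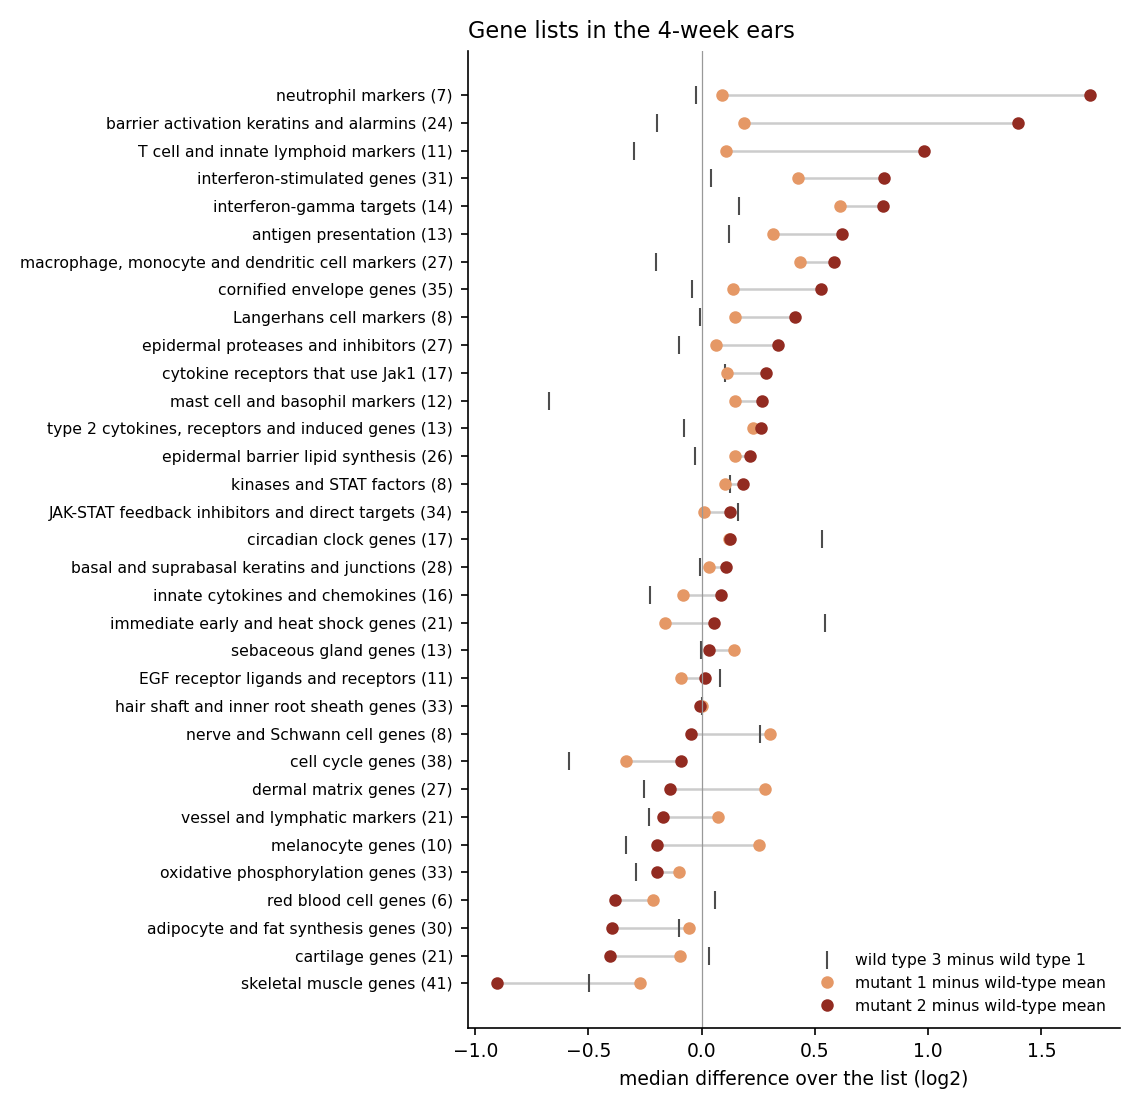
Median log2 difference of each gene list for mutant replicate 1 minus the wild-type mean, mutant replicate 2 minus the wild-type mean, and wild-type replicate 3 minus wild-type replicate 1. The barrier activation list lies at 0.19 and 1.39 in the 2 mutants and the skeletal muscle list at -0.27 and -0.90, with the wild-type pair itself apart by -0.50 for muscle.

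Muscle, cartilage and fat genes stood below wild type, and for muscle part of that rests on 1 wild-type array. Against wild-type replicates 1 and 3 the median was -0.20 and -0.18 for adipocyte genes and -0.13 and -0.21 for cartilage genes. Of 41 skeletal muscle genes, 20 were below in both mutants and 0 above, with medians of -0.27 in replicate 1 and -0.90 in replicate 2. The median over both mutants was -0.82 against wild-type replicate 1 and -0.29 against wild-type replicate 3. Myh7, the slow-fibre myosin, stood at 6.74 and 6.29 against 10.22 in wild-type replicate 1 and 6.35 in replicate 3. Tnni1, slow troponin I, stood at 8.19 and 8.44 against 10.37 and 8.998. How much slow muscle each ear sample held was not tested.

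Of 30 adipocyte genes, 12 were below and 1 above, with medians of -0.06 and -0.40. Replicate 2 was the lower mutant for 27 of them. Retn, the adipokine resistin, stood at 9.48 and 8.95 against 10.60 and 9.95, and Fabp4, a fatty acid carrier, at 13.90 and 13.54 against 14.19 and 14.13. Of 21 cartilage genes, 6 were below and 0 above, with medians of -0.10 and -0.40. Dermal matrix genes split the mutants, with medians of 0.28 in replicate 1 and -0.14 in replicate 2, and 1 of 27 below and 1 above in both. Col5a1, a collagen that regulates fibril width, stood at 13.48 and 12.65 against 13.03 and 12.76. Melanocyte genes did likewise, with medians of 0.25 and -0.20, and nerve genes, with 0.30 and -0.05. The part of these tissue lists in the epidermal and immune values was not tested.

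The remaining lists follow in the same form. Of 38 cell cycle genes, 9 were below in both mutants and 0 above, with a median of -0.20, while wild-type replicate 3 lay 0.58 below wild-type replicate 1 in the median. Of 6 red blood cell genes 5 were below, with a median of -0.30, and of 33 oxidative phosphorylation genes 11 were below, with a median of -0.14. The oxidative phosphorylation median was -0.25 against wild-type replicate 1 and -0.03 against wild-type replicate 3. Of 33 hair shaft and root sheath genes, 5 were above and 8 below, with a median near 0. Vessel genes had 4 above and 4 below of 21. Immediate early genes also differed within wild type: Fosb, a transcription factor induced within minutes of a stimulus, stood at 8.99 in wild-type replicate 3 and 2.71 in wild-type replicate 1, with the mutants at 3.32 and 6.73. Fos stood at 13.27 and 10.08 in the same wild-type arrays and at 9.61 and 11.36 in the mutants. Clock genes also differed within wild type, by a median of 0.53.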

How the data were processed

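Total RNA of whole ears was hybridised to Affymetrix GeneChip mouse genome arrays. The log2 values were deposited by the authors after GCRMA, which corrects background, normalizes arrays and summarises probe sets; its version is not given in the sources used here. The intensity values are MAS5 signals with detection calls, deposited by the authors per the submitters' processing notes, and were used for calls and, after a floor of 50 and log2, as an alternative. Of 45101 probe sets, 34958 named 1 gene; for each of 18194 genes the brightest such probe set over all arrays was kept, and the 11984 genes that reached 4 on 2 or more of the 12 arrays entered the tests. limma 3.58.1 in R 4.3.3 fitted a mean for each of 6 groups with 6 residual degrees of freedom, a variance trend and Benjamini-Hochberg adjustment. The contrast of the 2 mutants gave each its own mean. The number of arrays limits precision. Members, lists and tests were chosen with earlier results of these data known. Genes named were Jak1, the extremes of each group of genes, of each list and of each age contrast, and those called under any alternative with 10 or fewer calls; Nrip2 and Ifi27l2a mark the margin, and Marchf1 and Scgb1b27 were named after their values were seen. The fits were tested on simulated data.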

Additional observations from a re-analysis of the deposited data

Results flagged for a closer look

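Mutant replicate 1 stood apart from the other 11 arrays in data outside the comparisons of the report, the Y-linked genes. Eif2s3y was at 11.5, Uty at 8.27 and Kdm5d at 6.53 on that array, where the others, wild type included, were at the GCRMA floor of 2.14, although MAS5 called Uty present on wild-type replicate 1 of 4 weeks and Kdm5d on replicate 3 of the 6-week mutants. Its Xist level was 2.74. Wild-type replicate 1 of 6 weeks also had low Xist, at 2.77, with its Y-linked genes at the floor. The part of these differences in the gap between the 2 mutants was not tested, since each is a single sample.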

How the results depend on the processing

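Depth in the sense of reads has no meaning here: 2 arrays a group and signal near background limit what can be seen. Of 291 named genes, 87 had other probe sets and 19 of these had one of opposite sign.

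The 4-week comparison gave 0 calls in the settings tried except 10 without a filter on low values, all below that filter, and 16 by the rank product criterion. Leaving out 1 replicate gave 0 to 10 calls: 10 without mutant replicate 1 (Krt84, Fetub, Klk6, Krt16, Chil1, Wfdc18, Rdh16, Krt6b and Star higher, Btc lower) and 1 without wild-type replicate 3 (Myh7 lower). The contrast of the mutants gave 668 calls without a filter, 639 of them below it, 1 with the mean of probe sets or without a variance trend, 3 with MAS5 signals, with array number range as a block or without the 2-week arrays, and 8 without replicate 3 of the 2-week mutants, a setting added after the data were seen. The contrast with 6 weeks gave 10 calls without a filter and 1 with the range block; that with 2 weeks gave 12 without a filter and 0 to 345 without 1 replicate, the highest without 2-week mutant replicate 2 and 1 without 4-week wild-type replicate 3. A term for Xist, also added later, left 0 calls in the 3 fits that could hold it.

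Genes high in both mutants numbered 54 at a margin of 1.5-fold, 6 at 3-fold, 7 with MAS5 signals (5 of them among the 13), and 28 to 59 without 1 wild-type replicate. Genes low in both numbered 36, 0, 1 and 42 to 102 in the same settings, and 1 with the mean of probe sets. Replicate 2 alone was high for 114, 20 and 24 genes at these margins and with MAS5 signals, and low for 97 at 1.5-fold and 2 at 3-fold. The cause of these shifts was not tested. The medians of 11 gene lists, each within 0.2 of 0, took the other sign under at least 1 setting, mostly without 1 array; no single-gene difference compared did so. The 6-week list held no gene at an adjusted p under 0.01, so that setting gave no value. No paired analysis was possible because the groups share only replicate number 1; a replicate block left 0 calls.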
